A study of Mus musculus with 2 samples.

Results

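Rab GTPases, the small membrane-bound switches that mark compartments of vesicle traffic, were described across 2 single-cell RNA libraries of sorted mouse lung dendritic cells. The members were all genes whose symbol is Rab, a number and at most 1 further letter, which gave 59 of the 31053 genes listed in both matrices. The series held 1 library of conventional dendritic cells type 1 (cDC1), sorted as XCR1+, and 1 of type 2 (cDC2), sorted as CD172a+. Both came from lungs of C57BL/6 mice aged 8 to 10 weeks at steady state, released with dispase and run on the 10x Chromium v3.1 kit, and no genotype or treatment set the groups apart. How many mice went into a library is not stated in the labels. Neither sort was repeated and nothing was tested, so every interval below is a 95% counting interval for these libraries, and a 2-fold difference is a rule of size.

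A Rab protein is active when bound to GTP and idle when bound to GDP. Exchange factors (GEFs) load it with GTP, GTPase-activating proteins (GAPs) switch it off, and GDP dissociation inhibitors carry the idle form through the cytosol. Each Rab recruits its own effectors, motors, tethers and kinases among them, and in dendritic cells these proteins steer antigen uptake, phagosome maturation, the recycling of MHC molecules and the loading of antigen for T cells. cDC1 are the kind best known for cross-presentation, the display of engulfed antigen on MHC class I.

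Rab proteins hold to membranes through lipids that are attached to cysteines at their carboxyl end. The last 36 bases of the coding sequence, stop codon included, are shown for the members on which the results turn and for Rab7, the closest relative of Rab7b discussed here, because these ends carry the lipid sites and set close relatives apart. Capitals mark in-frame cysteine codons, and the sequences are from GENCODE vM21 on GRCm38, read 5′ to 3′ on the coding strand.
Rab7b: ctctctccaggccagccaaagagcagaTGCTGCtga
Rab7: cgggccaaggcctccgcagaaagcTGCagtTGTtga
Rab32: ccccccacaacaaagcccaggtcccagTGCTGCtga
Rab30: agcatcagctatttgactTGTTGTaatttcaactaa
Rab13: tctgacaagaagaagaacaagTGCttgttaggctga
Rab20: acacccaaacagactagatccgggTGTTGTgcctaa
Rab21: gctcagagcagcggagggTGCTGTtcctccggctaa
Rab9: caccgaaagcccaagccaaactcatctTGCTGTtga
Among the 59 members, the last 4 codons before the stop held cysteines at codons 3 and 4 in 15 members and at codons 2 and 4 in 20. A further 6 members had them at codons 1 and 2, 3 at codons 2 and 3, and 15 had 1 cysteine, at codon 1. Some of these 15, Rab21 and Rab30 among them, have another cysteine codon just before the last 4. Rab7b (chr1:131688695-131715439, plus strand) and Rab7 (chr6:87999106-88045270, minus strand) encode proteins of 199 and 207 residues, and their coding sequences were identical at 62.7% of aligned bases. Among 11 pairs of relatives aligned in this way the closest, Rab8a and Rab8b, were identical at 78.0%, and none of the 8 genes shown overlapped another listed gene on its strand. The other genes shown lie at chr10:10545002-10558265 (Rab32, minus strand), chr7:92741603-92844535 (Rab30, plus), chr3:90213695-90226385 (Rab13, plus), chr8:11453518-11478710 (Rab20, minus), chr10:115287084-115315594 (Rab21, minus) and chrX:166457253-166479867 (Rab9, minus).

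Promoter windows of 300 bases around the start of transcription, from the RefSeq table of GRCm38.p6, are shown for 2 genes set apart between the sorts (Rab32 and Rab20) and for 2 that were high in mature cells of both libraries (Rab21 and Rab9). Capitals mark the E-box CACGTG, and Rab7b, Rab30 and Rab13 are not shown. The windows lie at chr10:10558158-10558457 (Rab32), chr8:11478591-11478890 (Rab20), chr10:115315542-115315841 (Rab21) and chrX:166479818-166480117 (Rab9), all on the minus strand.
Rab32: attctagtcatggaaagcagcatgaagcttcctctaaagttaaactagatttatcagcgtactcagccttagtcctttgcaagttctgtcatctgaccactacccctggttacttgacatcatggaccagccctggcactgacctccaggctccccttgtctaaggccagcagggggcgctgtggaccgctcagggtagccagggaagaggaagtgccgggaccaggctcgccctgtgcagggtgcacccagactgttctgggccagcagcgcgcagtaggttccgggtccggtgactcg
Rab20: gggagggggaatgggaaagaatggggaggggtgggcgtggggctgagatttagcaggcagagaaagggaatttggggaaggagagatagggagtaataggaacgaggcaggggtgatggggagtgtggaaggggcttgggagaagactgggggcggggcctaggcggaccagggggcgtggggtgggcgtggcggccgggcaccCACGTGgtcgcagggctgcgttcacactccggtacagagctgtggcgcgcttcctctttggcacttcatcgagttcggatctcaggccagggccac
Rab21: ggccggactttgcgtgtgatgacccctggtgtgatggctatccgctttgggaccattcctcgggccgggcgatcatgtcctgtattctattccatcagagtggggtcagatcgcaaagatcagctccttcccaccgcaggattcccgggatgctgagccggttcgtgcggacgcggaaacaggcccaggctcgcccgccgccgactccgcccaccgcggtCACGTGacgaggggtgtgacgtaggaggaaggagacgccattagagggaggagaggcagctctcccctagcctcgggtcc
Rab9: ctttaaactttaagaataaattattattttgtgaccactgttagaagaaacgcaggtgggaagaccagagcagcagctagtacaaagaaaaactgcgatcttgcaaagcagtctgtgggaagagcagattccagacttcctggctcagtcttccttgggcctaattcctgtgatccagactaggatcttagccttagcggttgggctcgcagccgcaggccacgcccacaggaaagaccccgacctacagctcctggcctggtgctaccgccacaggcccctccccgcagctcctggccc
The table held 60 promoters of 48 members. CACGTG, which reads the same on both strands, stood in 6 of these 60 and in 7.15% of all 32851 promoters of the same length. TGANTCA (AP-1) stood in 3 of the 60 against 7.81% of all, a 10-base NF-kappa B site in 0 against 1.47%, and a 10-base ETS-IRF composite in 1 against 2.72%, both strands searched. These motifs were chosen after the expression values were seen, they do not overlap in the windows shown, and a match describes letters and no binding.

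After removing barcodes under 500 genes, under 1000 UMIs (unique molecular identifiers, 1 per captured transcript) or over 10% mitochondrial UMIs, 2574 cells with 35071861 UMIs stayed in the cDC1 library and 2835 cells with 38613693 UMIs in the cDC2 library. The median cell held 12866 UMIs in cDC1 and 12655 UMIs in cDC2. The cDC1 marker list (8 of 8 genes with UMIs in each library) summed to 2461 CPM (UMIs of a gene per 1000000 UMIs) in the cDC1 library, against 283.7 CPM in the cDC2 library, and the cDC2 list, Sirpa included, to 166.6 CPM in cDC1 and 2935 CPM in cDC2, so the sorts followed their labels. Cells were then gated on marker lists, a mature state on Fscn1, Ccl22 and 5 others, a Ccr7-positive state on the migration receptor Ccr7 alone, and a cycling state on 8 proliferation genes. A cell passed with at least 10 marker UMIs per 10000 and 3 markers detected (4 for the mature state, and Ccr7 itself for the Ccr7-positive one), limits that were chosen after seeing the data, and doublets were not removed. The cDC1 library held 104 mature, 49 Ccr7-positive, 193 cycling and 2097 immature cDC1-like cells. The cDC2 library held 81 mature, 547 Ccr7-positive, 238 cycling, 119 Cd7 Plac8, 148 macrophage and monocyte and 1440 immature cDC2-like cells. Macrophage and monocyte markers summed to 56.7 CPM in the cDC1 library, against 878.0 CPM in the cDC2 library. The 2 libraries shared 6 barcodes, 5 of them among kept cells, and 5 cDC1 and 4 cDC2 cells passed both dendritic cell gates. Among cells with 3 or more own-kind markers detected, 80 of the cDC1 sort and 135 of the cDC2 sort lay between 5 and 10 marker UMIs per 10000.

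Of the 59 members, 32 reached 10 CPM in at least 1 library and 28 in both, 24 were detected below that level, and 3 (Rab17, Rab9b and Rab3b) had 0 UMIs in both, which allows up to 0.0855 CPM in the cDC1 library, against 0.0777 CPM in the cDC2 library. Summed over members, the family held 2619 CPM in the cDC1 library, against 2170 CPM in the cDC2 library. Among members of the late endosome, lysosome and autophagy the sum was 648.3 CPM in cDC1 and 314.9 CPM in cDC2, of which Rab7b held 325 CPM in cDC1 and 18.4 CPM in cDC2. Members of regulated secretion and lysosome-related organelles summed to 72.5 CPM in cDC1 and 38.8 CPM in cDC2. The higher sum in cDC1 lay in Rab32 alone, which had 1769 UMIs in cDC1 and 566 UMIs in cDC2. The ER and Golgi group (467.6 CPM in cDC1, 443.7 CPM in cDC2) and the early endosome and recycling group (769.3 CPM in cDC1, 808.8 CPM in cDC2) lay closer together. The Golgi to plasma membrane group, of 4 members, held 644.7 CPM in cDC1 and 549.0 CPM in cDC2, and the cilium and other group 16.4 CPM in cDC1 and 15.1 CPM in cDC2. Because transcripts are tagged at the 3′ end, levels of different genes can be set side by side without a correction for length.

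The most abundant member was Rab8b, which carries vesicles from the Golgi to the plasma membrane, at 352 CPM in the cDC1 library, against 331 CPM in the cDC2 library. Rab7, the main Rab of late endosomes, had 251 CPM in cDC1 and 208 CPM in cDC2, and Rab14, which works between Golgi and endosomes, had 149.7 CPM in cDC1 and 161.7 CPM in cDC2. These 3 differed by at most 1.21-fold. Rab10, which serves exocytosis and in mouse macrophages the delivery of TLR4 to the surface, had 194.7 CPM in the cDC1 library, against 127.5 CPM in the cDC2 library (1.53-fold, 1.47 to 1.58). Rab11a, the Rab of recycling endosomes, had 168.3 CPM in cDC1 and 96.0 CPM in cDC2 (1.75-fold, 1.68 to 1.83). Rab43, a Golgi Rab that mouse cDC1 use in cross-presentation, had 52.6 CPM in cDC1 and 30.7 CPM in cDC2 (1.71-fold, 1.59 to 1.84). These 3 leaned to the cDC1 library without reaching the 2-fold rule, and they are 3 of the 7 members past 1.5-fold in that direction. The share of all genes past 1.5-fold was not counted, so this count is not read as a trait of the family. Rab21, an early endosome Rab that moves integrins, leaned the other way with 116.6 CPM in cDC1 and 166.7 CPM in cDC2 (0.70-fold, 0.67 to 0.73). Rab5c of early endosomes (107 CPM in cDC1, 129 CPM in cDC2), Rab2a of the Golgi (105 CPM in cDC1, 100.4 CPM in cDC2) and Rab8a (87.5 CPM in cDC1, 88.5 CPM in cDC2) lay between 0.83-fold and 1.05-fold, and with Rab7b these were the 10 most abundant members.

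**Figure D1:**
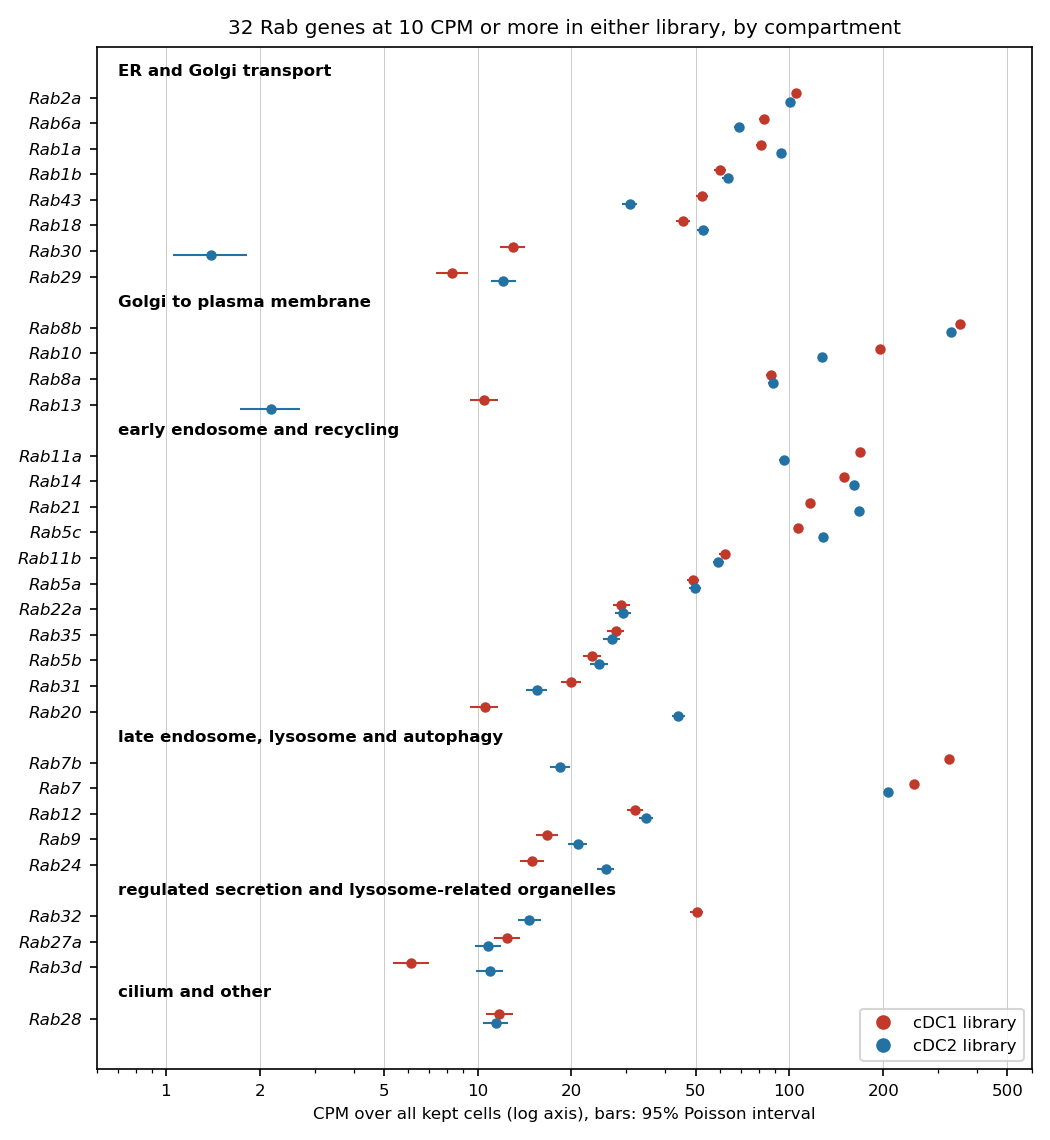
Level of the 32 Rab genes at 10 CPM or more in either library, in CPM on a log axis, grouped by compartment, with red points for the cDC1 library, blue for the cDC2 library and bars for the 95% Poisson interval. Most pairs of points lie close together, and Rab7b (325 CPM in cDC1, 18.4 CPM in cDC2), Rab30, Rab13 and Rab32 stand higher in cDC1 while Rab20 stands higher in cDC2.

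Against this even ground, 5 of the 32 members stood 2-fold or more apart. Higher in the cDC1 library were Rab7b, Rab30, Rab13 and Rab32 (4 members, 12.5%, where 5.51% of all 6610 genes at that level were called), and lower was Rab20 (1 member, 3.13%, against 7.79% of all genes). The median log2 ratio of the 32 was 0.01, beside -0.05 over all genes at that level. These 5 genes carry the contrast, and the other members at that level stayed within 2-fold.

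Rab7b, a Rab of late endosomes and the trans-Golgi that in mouse macrophages dampens TLR4 and TLR9 signalling, had 325 CPM in the cDC1 library (11409 UMIs, 319 to 331), against 18.4 CPM in the cDC2 library (710 UMIs, 17.1 to 19.8), a ratio of 17.7 (16.4 to 19.1). It was the second most abundant member in cDC1. In immature cells of the own kind alone the levels were 363 CPM in cDC1-like cells and 7.46 CPM in cDC2-like cells, a ratio of 48.6 (41.2 to 57.8). The cDC2 library as a whole held other cells that carried the gene. Of its 710 UMIs, 37.5% lay in macrophage and monocyte cells, which supplied 6.01% of all UMIs of that library, and 24.8% in the 37 cDC1-like cells of that library, which supplied 1.14%. Only 20.1% lay in the immature cDC2-like cells, which supplied 49.7%.

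The few cells of the other kind in each library allow a similar comparison without crossing libraries. Within the cDC2 library, Rab7b had 401 CPM in the 37 cDC1-like cells and 7.46 CPM in the 1440 cDC2-like cells (53.8-fold, 42.9 to 67.5). Within the cDC1 library it had 363 CPM in cDC1-like cells and 20.2 CPM (8 UMIs) in the 22 cDC2-like cells (17.9-fold, 9.10 to 41.6). The difference between the kinds was thus as large within the cDC2 library as between libraries, and smaller within the cDC1 library, where few cells set the lower level. The 37 cDC1-like cells of the cDC2 library had also 900.0 CPM of the Cd7 Plac8 list, against 31.8 CPM in cDC1-like cells of the cDC1 library, and the part of this in the result was not tested. The 22 cDC2-like cells of the cDC1 library had a median of 17.4 mature marker UMIs per 10000, at a median depth of 17450.5 UMIs. Immature cDC2-like cells of the cDC2 library had 5.96 at 12554 UMIs, and the part of this difference was not tested either.

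By cell, 93.2% of immature cDC1-like cells (1954 of 2097, 92.0 to 94.2%, exact binomial) had at least 1 Rab7b UMI, at a median depth of 12625 UMIs. In immature cDC2-like cells the share was 6.18% (89 of 1440, 4.99 to 7.55%) at a median of 12554 UMIs. Cells gated to other lineages of that library, at a median of 5630 UMIs, gave 3.54% (4 of 113, 0.97 to 8.82%). Ccr7-positive cells of that library gave 2.38% (13 of 547, 1.27 to 4.03%) at a median of 12941 UMIs, and mature cells gave 2.47% (2 of 81, 0.30 to 8.64%) at a median of 10806 UMIs. The part of free RNA in these low shares was not tested. With each cell thinned to 2000 UMIs the shares were 49.1% in cDC1-like cells, 0.974% in cDC2-like cells and 1.83% in other lineages, with 5, 3 and 4 shallower cells left out.

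**Figure D2:**
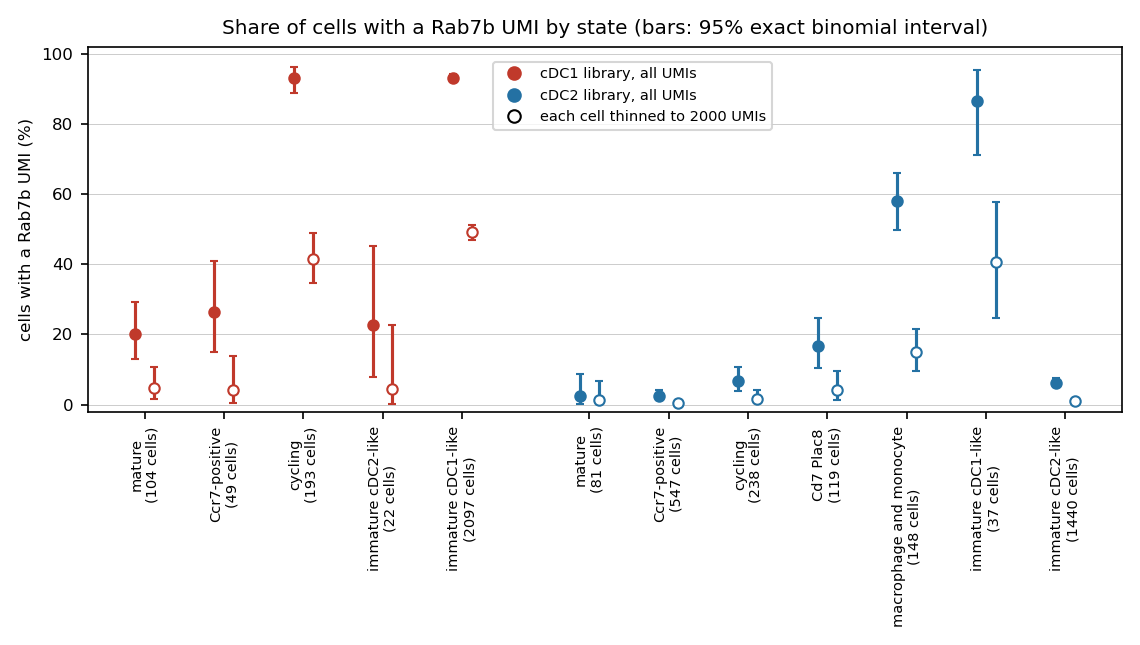
Percent of cells with at least 1 Rab7b UMI in each state of the cDC1 library (red) and the cDC2 library (blue), filled points for all UMIs and open points after thinning each cell to 2000 UMIs, with 95% exact binomial intervals. Immature and cycling cells of the cDC1 library stand at 93.2% and 93.3%, mature cells at 20.2%, and in the cDC2 library cDC1-like cells (86.5%) and macrophages and monocytes (58.1%) stand above the rest.

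Rab32, which with Rab38 builds lysosome-related organelles and in mouse macrophages restricts Salmonella Typhi, had 50.4 CPM in the cDC1 library (48.1 to 52.8), against 14.7 CPM in the cDC2 library (13.5 to 15.9), a ratio of 3.44 (3.13 to 3.79). The ratio between kinds was 3.38 in immature cells across libraries, 3.27 within the cDC1 library (1359 UMIs in cDC1-like, 6 in cDC2-like cells) and 3.27 within the cDC2 library (21 UMIs in cDC1-like, 281 in cDC2-like cells). The 6 UMIs stand for 15.2 CPM (5.56 to 33.0) and the 21 UMIs for 47.8 CPM (29.6 to 73.1). Both ratios within a library are therefore loose, and their closeness is not read as precision. Rab38, its relative with 72.1% identical coding bases, had only 5 UMIs in cDC1 and 10 UMIs in cDC2. Of this pair, the cells therefore carried Rab32 at a measurable level and Rab38 near the limit of detection.

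Rab30, a Golgi Rab, had 12.97 CPM in the cDC1 library (455 UMIs), against 1.40 CPM in the cDC2 library (54 UMIs), a ratio of 9.28 (6.99 to 12.5), and 15.9 (9.64 to 28.1) between immature cells. Within the cDC2 library the 37 cDC1-like cells had 13.7 CPM from 6 UMIs, close to the level in the cDC1 library, against 0.83 CPM in cDC2-like cells. Rab13, known from traffic to cell junctions, had 10.5 CPM in the cDC1 library, against 2.18 CPM in the cDC2 library (4.82-fold, 3.80 to 6.19). It lies just above the 10 CPM limit, and among immature cells it lay below that limit in both kinds, with 9.85 CPM in cDC1 and 1.77 CPM in cDC2.

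Rab20, an endosome and phagosome Rab that interferon gamma raises in macrophages, ran the other way. It had 10.5 CPM in the cDC1 library (9.48 to 11.7), against 44.0 CPM in the cDC2 library (41.9 to 46.1), a ratio of 0.24 (0.21 to 0.27). In immature cells the levels were 8.13 CPM in cDC1-like and 46.9 CPM in cDC2-like cells, 5.76-fold lower in cDC1 (4.97 to 6.70). The 22 cDC2-like cells of the cDC1 library had 58.1 CPM, and the 37 cDC1-like cells of the cDC2 library had 2.28 CPM from 1 UMI. In the comparison of immature cells, Rab7b, Rab30 and Rab32 were called higher in cDC1 (3 of 31 members, against 6.41% of 6440 genes) and Rab20 lower (1 of 31, against 8.93%).

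**Figure D3:**
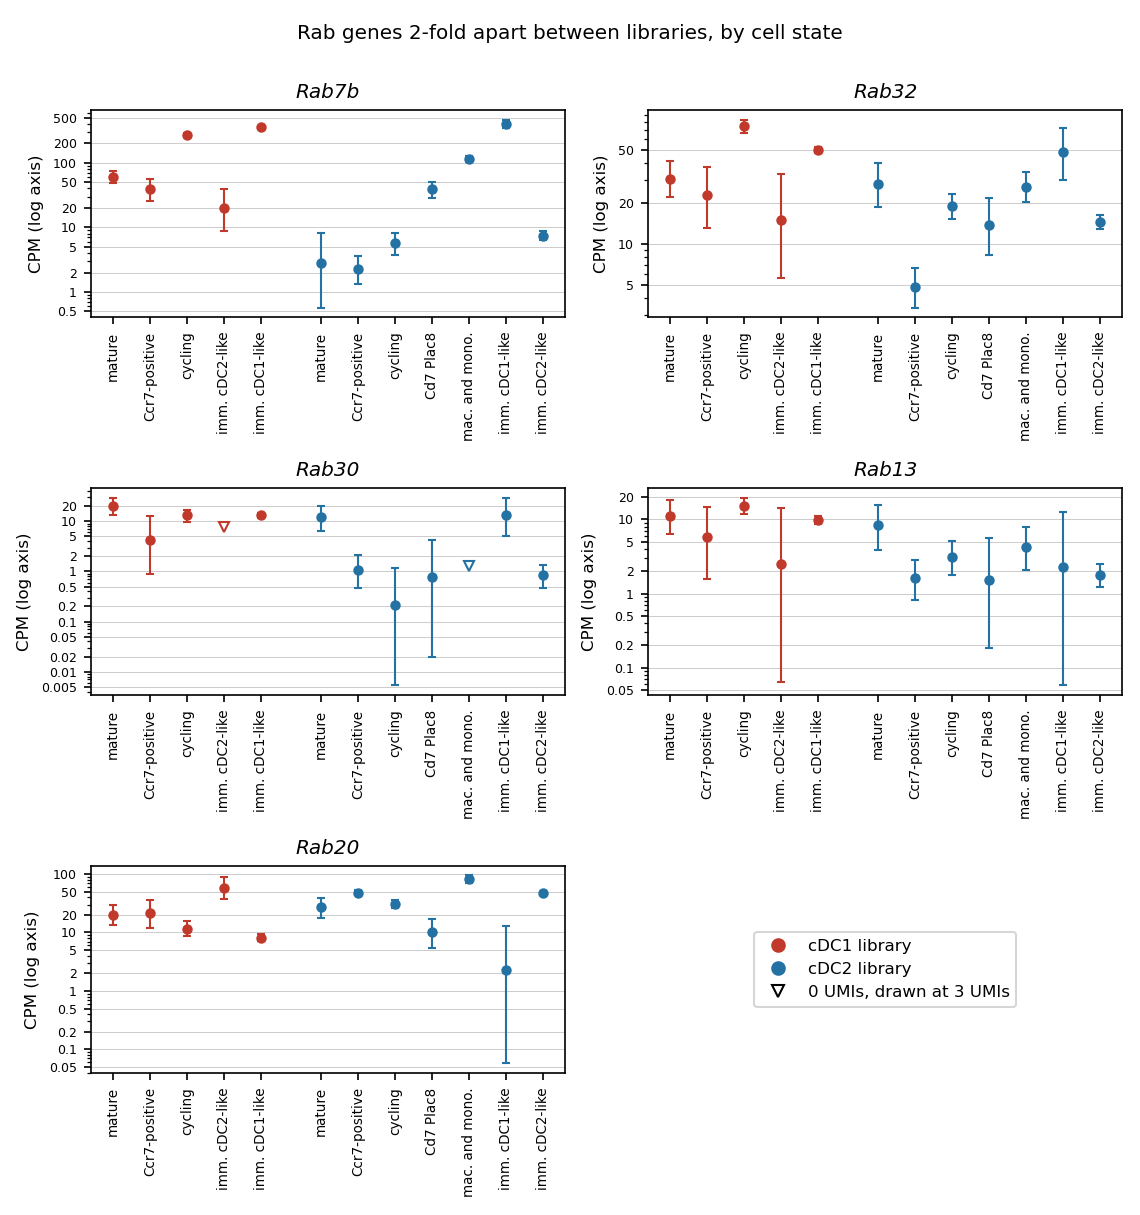
CPM on log axes of the 5 Rab genes that stood 2-fold apart between libraries, in each gated state of the cDC1 library (red) and the cDC2 library (blue), with 95% Poisson intervals and open triangles at 3 UMIs where none was counted (imm., immature; mac. and mono., macrophage and monocyte). Rab7b is at 362.6 CPM in immature cDC1-like and 61.2 CPM in mature cells of the cDC1 library, and Rab30 is at 12.1 CPM in mature and 0.83 CPM in immature cDC2-like cells of the cDC2 library.

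Members below 10 CPM in both libraries did not enter the comparison. The share of all genes called at a lower limit was not counted, so the members it adds are not read as a trait of the family. At a limit of 1 CPM, Rab19, Rab23, Rab39 and Rab3a would join the members higher in the cDC1 library, with 103, 45, 138 and 76 UMIs there, against 27, 19, 45 and 35 UMIs of the same 4 genes in the cDC2 library. Same-strand overlap with another listed gene touched 4 members, Rab43, Rab4b, Rab4a and Rab26, and reads of such pairs cannot always be told apart. For Rab43 the partner Gm45140 had 3 UMIs in cDC1 and 7 in cDC2, beside 1843 UMIs of Rab43 in cDC1 and 1187 in cDC2. Rab26 (29 UMIs in cDC1, 17 in cDC2) overlaps Traf7 (621 UMIs in cDC1, 803 in cDC2), and its counts are uncertain for that reason. Gm21983 and Gm20388, the partners of Rab4b and Rab4a, had 0 UMIs, and Rab4a itself had 0 in cDC1 and 1 in cDC2.

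Mature dendritic cells, the form that shows antigen to T cells, were set against immature ones within each library. In the cDC1 library, 5 of the 30 members at 10 CPM or more in either state were 2-fold higher in mature cells (Rab9, Rab21, Rab20, Rab22a and Rab5b; 14.0% of 6567 genes were called higher) and 3 were lower (Rab7b, Rab24 and Rab27a; 13.2% of genes were lower). In the cDC2 library, 2 of 30 were higher (Rab30 and Rab21; 11.7% of 6701 genes) and 2 were lower (Rab3d and Rab24; 7.91% of genes). These shares are near those of all genes, and the median log2 ratio of the members was 0.20 in cDC1 and 0.11 in cDC2, beside 0.01 and 0.09 over all genes. The number of markers, more than their sum, set the mature gate, since 710 cDC1 and 1058 cDC2 cells reached 10 mature marker UMIs per 10000 with fewer than 4 markers, 26 and 115 of them with 3. With 3 markers asked, a choice made after seeing the data, 6 members were called in cDC1 and 2 in cDC2 (Rab24 and Rab33b), and with 5 markers 5 in cDC1 and 4 in cDC2. Rab7b, Rab9, Rab21 and Rab24 were called at each number in the cDC1 library, and no member was at each number in the cDC2 library.

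Rab21 was the only member called higher in mature cells of both libraries, although in the cDC2 library its log2 ratio was 0.77, under 2-fold, with 3 markers asked. It had 356 CPM in mature and 101.6 CPM in immature cells of the cDC1 library (3.50-fold, 3.18 to 3.85), and 340.4 CPM in mature and 153.1 CPM in immature cells of the cDC2 library (2.22-fold, 1.99 to 2.48). Ccr7-positive cells lay between them with 195.3 CPM in the cDC1 library, against 199.6 CPM in the cDC2 library. The 2 kinds thus stood at like levels in the mature state and apart in the immature one. Ankrd27, the gene of an exchange factor for Rab21 that also binds Rab32, had 17.4 CPM in mature and 8.50 CPM in immature cells of the cDC1 library (2.04-fold, 1.30 to 3.09), and 16.7 CPM in mature and 7.51 CPM in immature cells of the cDC2 library (2.22-fold, 1.28 to 3.64).

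Rab9, which returns mannose 6-phosphate receptors from late endosomes to the Golgi, had 60.5 CPM in mature and 14.2 CPM in immature cells of the cDC1 library (4.26-fold, 3.34 to 5.39). In the cDC2 library it had 34.3 CPM in mature and 17.2 CPM in immature cells, a ratio of 1.99 (1.38 to 2.81) just under the rule. Among early endosome members of the cDC1 library, Rab22a had 58.4 CPM in mature and 26.6 CPM in immature cells (2.20-fold, 1.73 to 2.75) and Rab5b had 46.6 CPM in mature and 22.4 CPM in immature cells (2.08-fold, 1.59 to 2.67). In the cDC2 library their ratios were 1.82 (1.33 to 2.45) and 1.26 (0.84 to 1.83), so Rab22a leaned the same way and the interval of Rab5b spans 1. Rab8b, the most abundant member, was higher to a like degree in both, at 552 CPM in mature and 343 CPM in immature cDC1 (1.61-fold, 1.495 to 1.73) and 525 CPM in mature and 325 CPM in immature cells of the cDC2 library (1.62-fold, 1.48 to 1.76).

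**Figure D4:**
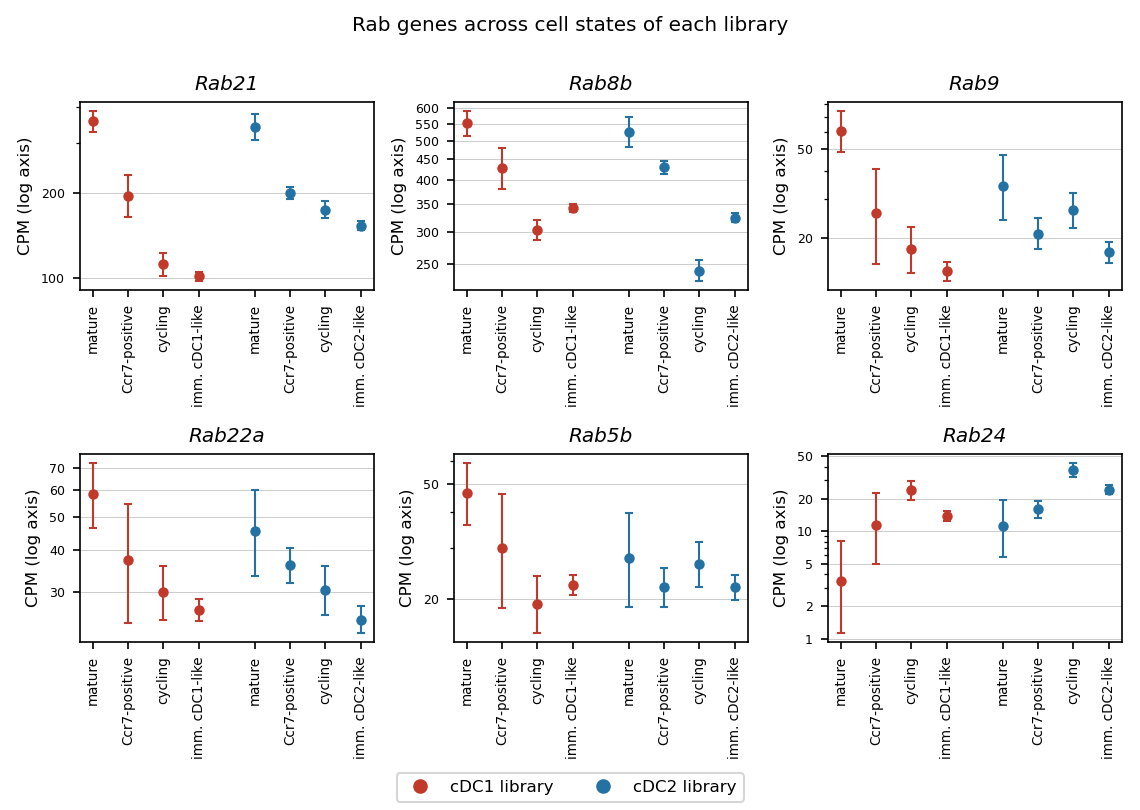
CPM on log axes of 6 Rab genes in mature, Ccr7-positive, cycling and immature cells of the cDC1 library (red) and the cDC2 library (blue), with 95% Poisson intervals (imm., immature). Rab21 is highest in mature cells (356 CPM in cDC1, 340.4 CPM in cDC2), lower in Ccr7-positive cells (195.3 CPM in cDC1, 199.6 CPM in cDC2) and lowest in immature cells, and Rab24 is lowest in mature cells.

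In the cDC1 library, Rab7b was the member furthest below its immature level. It had 61.2 CPM in mature cDC1 (88 UMIs, 49.0 to 75.3) and 363 CPM in immature cells, 5.93-fold lower in mature cells (4.81 to 7.40). The UMIs were not spread evenly, since 21 of the 104 mature cells (20.2%) held all 88, at 4.19 UMIs per cell with the gene, against 5.09 in the 1954 immature cells with it. Rab24, linked to autophagy, had 3.47 CPM (5 UMIs) in mature and 14.0 CPM in immature cells of the cDC1 library, 4.03-fold lower in mature cells (1.71 to 12.5). In the cDC2 library it had 11.1 CPM in mature and 24.5 CPM in immature cells, 2.20-fold lower in mature cells (1.25 to 4.29). It was the member called lower in both libraries. Rab27a, which in mouse dendritic cells helps bring the NADPH oxidase to phagosomes, had 6.25 CPM (9 UMIs) in mature and 12.8 CPM in immature cDC1, and Rab3d, a Rab of secretory granules, 2.78 CPM (3 UMIs) in mature and 10.9 CPM in immature cells of the cDC2 library.

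Rab30 gave the largest ratio in the cDC2 library, with 12.1 CPM in mature cells (13 UMIs, 6.42 to 20.6) and 0.83 CPM in immature cells (16 UMIs), a ratio of 14.5 (6.395 to 32.05). In the cDC1 library it had 20.2 CPM in mature and 13.2 CPM in immature cells (1.52-fold, 1.005 to 2.22). Between mature cells of the 2 libraries its ratio was 1.67, with an interval of 0.84 to 3.50 that spans 1. Rab32 and Rab20 also drew together in mature cells, from opposite sides. Rab32 had 30.6 CPM in mature and 49.6 CPM in immature cDC1, and 27.8 CPM in mature and 14.7 CPM in immature cells of the cDC2 library. Rab20 had 20.2 CPM in mature and 8.13 CPM in immature cDC1, and 26.9 CPM in mature and 46.9 CPM in immature cells of the cDC2 library. Their ratios between mature cells were 1.10 (0.68 to 1.81) for Rab32 and 0.75 (0.43 to 1.30) for Rab20, beside 3.38 and 0.17 between immature cells. Set directly against each other, mature cells of the cDC1 library were 2-fold apart from mature cells of the cDC2 library in Rab7b (61.2 CPM in cDC1 and 2.78 CPM in cDC2, 22.0-fold, 7.28 to 109) and Rab24 (3.47 CPM in cDC1 and 11.1 CPM in cDC2, 0.31-fold, 0.09 to 0.95), which is 1 of 30 members in each direction where 5.24% of 6656 genes were higher and 11.0% lower.

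Markers of the sorted kind were lower in mature cells, where the cDC1 list stood at 1166 CPM against 2680 CPM in immature cells of the cDC1 library, and the cDC2 list at 1271 CPM in mature and 3739 CPM in immature cells of the cDC2 library. In the mature gate of the cDC1 library 91 of 104 cells had the larger sum for cDC1 markers and 11 for cDC2 markers, and in that of the cDC2 library 46 of 81 had the larger sum for cDC2 markers and 22 for cDC1 markers. Kept to own-kind cells, a choice made after seeing the data, Rab7b had 67.2 CPM in mature cDC1 (5.39-fold lower than in immature cells), Rab21 had 357 CPM and Rab20 20.3 CPM. In the cDC2 library the own-kind mature cells had 10.8 CPM of Rab30 from 8 UMIs (12.9-fold, 4.80 to 32.1), 31.1 CPM of Rab32 (2.12-fold, 1.32 to 3.24) and 25.7 CPM of Rab20. Rab13, at 10.8 CPM from 8 UMIs against 1.77 CPM, joined the members called there, and Rab27a was no longer called in cDC1 (0.55-fold). The directions named above were the same in these cells. Macrophage and monocyte markers summed to 10.4 CPM in mature and 5.5 CPM in immature cDC1, with Fcgr1 and F13a1 at 0 in mature cells, and to 98.3 CPM in mature and 79.3 CPM in immature cells of the cDC2 library, and their part in the result was not tested.

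Across the 28 members measured in both libraries, 13 lay above 1 in mature over immature cells of both and 7 lay below 1 in both. A further 3 lay above 1 in the cDC1 library only and 5 in the cDC2 library only. The same counts over all genes were not made, so these are not read as a trait of the family.

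**Figure D5:**
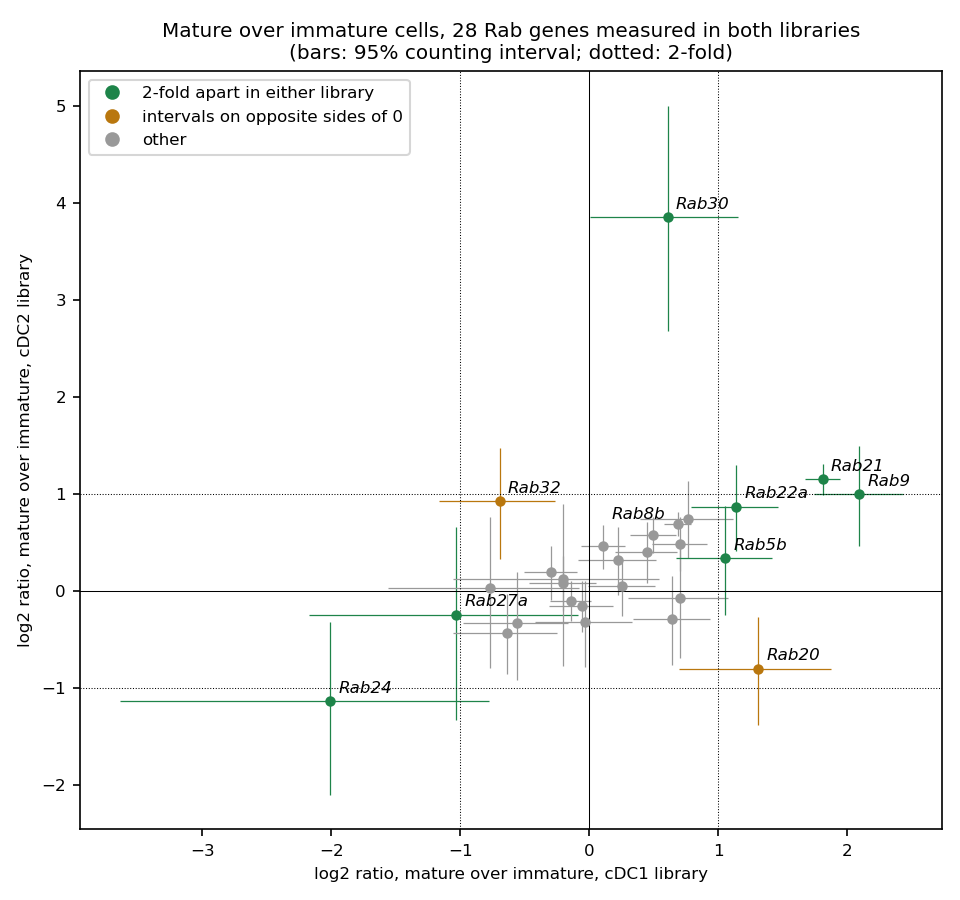
Log2 ratio of mature over immature cells in the cDC1 library (horizontal) and the cDC2 library (vertical) for the 28 Rab genes measured in both, with 95% counting intervals and dotted lines at 2-fold. Rab21 and Rab9 lie toward the upper right, Rab24 toward the lower left, and Rab32 and Rab20 (orange) have intervals on opposite sides of 0 in the 2 libraries; Rab7b is not drawn because it is under 10 CPM in both states of the cDC2 library.

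Ccr7-positive cells outside the mature gate shared some differences with mature cells and went the other way in others. Rab30 in the cDC1 library and Rab32 in the cDC2 library were lower than in immature cells, while in mature cells they were higher. In the cDC1 library 6 of 31 members were 2-fold lower than in immature cells (11.4% of 6605 genes were) and 4 were higher (11.5%). Rab7b was lowest with 38.8 CPM, against 363 CPM in immature cells (9.35-fold lower, 6.42 to 14.2), followed by Rab30, Rab27a and Rab31 with 3, 3 and 5 UMIs. Rab6b (10.05 CPM, 7 UMIs), Rab34 (10.05 CPM, 7 UMIs), Rab20 (21.5 CPM) and Rab12 (63.2 CPM) were higher. Of these 49 cells, however, only 29 had the larger sum for cDC1 markers and 18 had it for cDC2 markers, and the gate's cDC2 list stood at 1287 CPM, against 71.6 CPM in immature cDC1-like cells. In the 29 cells with the larger cDC1 sum, Rab7b had 61.7 CPM (5.87-fold lower, 25 UMIs), Rab12 stayed 2.01-fold higher (1.28 to 3.01), and 4 members were lower. Rab20, Rab34 and Rab6b were under 10 CPM in both states of this comparison and so were not called, with 4, 3 and 3 UMIs in the 29 cells and ratios of 1.21 (0.33 to 3.15), 2.14 (0.43 to 6.44) and 2.42 (0.49 to 7.31), intervals that all span 1. Rab30 (0.56-fold) and Rab32 (0.65-fold) were no longer called either.

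In the cDC2 library, where 538 of 547 Ccr7-positive cells had the larger cDC2 sum, Rab34, a Rab of lysosome positioning, was higher at 12.5 CPM against 4.74 CPM in immature cells (2.63-fold, 1.95 to 3.55; 1 of 30 members, 0.866% of 6119 genes). Rab32 and Rab3d were lower (2 of 30, 3.35% of genes). Rab32 had 4.83 CPM in Ccr7-positive and 14.7 CPM in immature cells (3.04-fold lower, 2.14 to 4.42), while mature cells of the same library had 27.8 CPM. Of these 3 states, Rab32 was lowest in the Ccr7-positive one. Between 5 and 10 Ccr7 UMIs per 10000 lay 55 cDC1-sorted cells and 328 cDC2-sorted cells, so this gate is a range of a continuous measure.

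No member was 2-fold apart between cycling and immature cells in either library, by the rule of size and with no test. Over all genes, the shares were larger for higher levels (10.7% of 6856 were higher and 0.321% lower in cDC1; 8.37% of 6788 higher and 0.899% lower in cDC2), with a median log2 ratio of 0.26 in cDC1 and 0.20 in cDC2 over all genes and 0.14 and 0.13 over the members. The nearest were Rab24 in cDC1, at 24.3 CPM in cycling and 14.0 CPM in immature cells (1.73-fold, 1.38 to 2.17), and Rab29, a Golgi Rab that works with the kinase LRRK2, in cDC2, at 19.7 CPM in cycling and 10.4 CPM in immature cells (1.90-fold, 1.47 to 2.44). Rab11b, a relative of Rab11a, had ratios of 1.51 in cDC1 and 1.52 in cDC2. Among cells with 3 or more cycling markers detected, 56 of the cDC1 sort and 69 of the cDC2 sort lay between 5 and 10 marker UMIs per 10000.

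Cd7 Plac8 cells of the cDC2 library, named after the marker list that gates them, had 38.7 CPM of Rab7b against 7.46 CPM in immature cDC2-like cells (5.18-fold, 3.68 to 7.20) and 10.8 CPM of Rab2b against 4.22 CPM. They had less Rab20, at 10.05 CPM against 46.9 CPM in immature cells, and less Rab8b, at 144.6 CPM against 325 CPM in immature cells (2.25-fold lower, 1.94 to 2.61). Thus 2 of 32 members were called in each direction, where 8.23% of 6729 genes were higher and 6.9% lower. Macrophage and monocyte cells of that library had 115 CPM of Rab7b (15.4-fold, 12.5 to 19.0), 38.3 CPM of Rab3d (3.52-fold), 42.6 CPM of Rab31 (2.94-fold) and 22.0 CPM of Rab29 (2.12-fold), and 1.72 CPM of Rab27a from 4 UMIs, against 11.00 CPM in immature cDC2-like cells. That is 4 of 31 members higher (12.3% of 6867 genes) and 1 lower (3.32%). Rab20 was higher there as well but within 2-fold, at 81.8 CPM.

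The order of Rab7b over the named states was cDC1-like cells of the cDC2 library (401 CPM, 344 to 465), immature cDC1 (363 CPM, 356 to 370), cycling cDC1 (274 CPM, 258 to 290), macrophages and monocytes (115 CPM, 101 to 129), mature cDC1 (61.2 CPM), Ccr7-positive cells of the cDC1 library (38.8 CPM), Cd7 Plac8 cells (38.7 CPM) and the cDC2-like cells of the cDC1 library (20.2 CPM). The intervals of the first pair overlapped. The interval of mature cDC1 (49.0 to 75.3) overlapped those of Ccr7-positive (25.6 to 56.4) and Cd7 Plac8 cells (28.7 to 51.0). Those of Ccr7-positive and Cd7 Plac8 cells overlapped each other and that of the cDC2-like cells (8.73 to 39.8, 8 UMIs). From mature cDC1 down, the order of neighbouring states is therefore not settled. Own-kind Ccr7-positive cells of the cDC1 library, given above, lay near the level of mature cDC1. Dendritic cells of the cDC2 library in the immature, cycling, mature and Ccr7-positive states lay at or below 7.46 CPM.

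The regulators of the family were followed through 130 genes, all found in the files. These were 8 of prenylation and recycling, 29 GEFs, 32 GAPs, 41 effectors and relatives, and 20 subunits of tethers or the retromer coat. Between libraries 81 were measured, of which 8 were 2-fold higher in cDC1 and 5 lower, beside 5.51% of all genes called higher and 7.79% called lower. Higher were Rab11fip4, an effector of Rab11 (20.2 CPM in cDC1, 1.61 CPM in cDC2, 12.6-fold), the kinase Lrrk2, which phosphorylates several Rabs (143 CPM in cDC1, 27.4 CPM in cDC2, 5.22-fold, 4.88 to 5.58), the GAP genes Tbc1d8, Sgsm3, Rabgap1l, Tbc1d10c and Tbc1d14 (2.15-fold to 4.33-fold), and Hps4. Hps4 encodes a subunit of BLOC-3, the exchange factor of Rab32 and Rab38. It had 40.2 CPM in the cDC1 library, against 12.6 CPM in the cDC2 library (3.19-fold, 2.87 to 3.54), beside 3.44-fold for Rab32. Hps1, on the same list of GEFs, was not called. Lower in cDC1 were Rab3il1, a GEF (1.11 CPM in cDC1, 16.2 CPM in cDC2, 14.6-fold lower), Tbc1d16, Dennd3, Rin2 and Rilpl2, the last the most abundant of them with 112 CPM in the cDC1 library, against 299.6 CPM in the cDC2 library.

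In mature over immature cells the same lists held 23 higher and 7 lower of 83 measured genes in the cDC1 library and 16 higher and 2 lower of 80 in the cDC2 library, beside 14.0% of all genes called higher and 13.2% lower in cDC1, and 11.7% higher and 7.91% lower in cDC2. Both libraries were gated on the same mature markers, and the overlap over all genes was not counted. Of the listed genes called higher, 14 were higher in both, 60.9% of those in the cDC1 library and 87.5% of those in the cDC2 library. They included Tbc1d4, a GAP known from glucose transporter traffic and the most abundant of the 14, with 2087 CPM in mature and 790.4 CPM in immature cDC1 (2.64-fold), and 1989 CPM in mature and 393.9 CPM in immature cells of the cDC2 library (5.05-fold). Rabgap1l had 207 CPM in mature and 48.5 CPM in immature cDC1 (4.27-fold), and 156 CPM in mature and 12.3 CPM in immature cells of the cDC2 library (12.7-fold). Vps39, a subunit of the HOPS tether that acts with Rab7, Sbf2, Ric1 and Tbc1d15, a GAP for Rab7, were also among the 14. Hps4 (16.7 CPM in mature, 41.8 CPM in immature cells) and Lrrk2 (62.5 CPM in mature, 157 CPM in immature cells) were both 2.50-fold lower in mature cDC1, the library where Rab32 had 30.6 CPM in mature and 49.6 CPM in immature cells. In the cDC2 library neither Hps4 nor Lrrk2 was called, while Rab32 had 27.8 CPM in mature and 14.7 CPM in immature cells.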

How the data were processed

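The series held 1 droplet library per sort. Per the file headers, the authors deposited whole-number UMI counts as 10x matrices of genes by barcodes. The counts were made with Cell Ranger 3.2 on mm10, per the submitters' processing notes, while the file headers name Cell Ranger 3.0.2. The notes also name Seurat, with no role given, and neither the annotation release nor the way barcodes were selected is stated in these notes. Of 2939 cDC1 and 3045 cDC2 barcodes (36021556 and 39188956 UMIs), 365 and 210 were left out under the limits of 500 genes, 1000 UMIs and 10% mitochondrial UMIs. No doublet caller was used. Counts were summed over cells of a library or gated state and divided by the summed total (CPM). Intervals at 95% are exact Poisson for a level, exact conditional binomial for a ratio and exact binomial for a share of cells, and cover counting error only. Genes at 10 CPM or more in either group entered a comparison, and a 2-fold difference was called. A level of 0 was set to a limit of 3 UMIs. With no replicates, no p-value was computed, and library and sort cannot be told apart. The named members were those 2-fold apart in a comparison (up to 4 per further state), the 10 most abundant and those with 0 UMIs, and members named beside them were chosen after their values were seen. Members, gene lists and comparisons were chosen with earlier results of these data known. Alternatives covered the cell filter, the low-value limit, the fold called, the scaling, the gate and the depth. Computation used Python 3.11.15, numpy 2.4.6, scipy 1.17.1, pandas 2.3.3 and matplotlib 3.10.9. The CPM ratio, its call and its interval were tested on simulated Poisson sums, and the cell filter, gates and thinning were not.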

Additional observations from a re-analysis of the deposited data

Results flagged for a closer look

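Rab20 and Rab32 had log2 ratios of opposite sign in the 2 libraries, with counting intervals on opposite sides of 0. For Rab20 in mature over immature cells the log2 ratio was 1.31 in the cDC1 library (20.2 against 8.13 CPM) and -0.80 in the cDC2 library (26.9 against 46.9 CPM), a difference of 2.11. For Rab32 it was -0.70 in the cDC1 library (30.6 against 49.6 CPM) and 0.93 in the cDC2 library (27.8 against 14.7 CPM), a difference of -1.62. For Rab20 in cycling over immature cells it was 0.52 in the cDC1 library (11.7 against 8.13 CPM) and -0.60 in the cDC2 library (30.8 against 46.9 CPM), a difference of 1.12. With 1 library per sort these differences were not tested.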

How the results depend on the processing

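Of 148 recomputed values of the 17 called ratios, 137 stayed within the counting interval of the reported value, 11 lay outside it in the same direction and 0 changed direction, while 23 were no longer called. An alternative CPM limit or fold called leaves the ratio itself unchanged, so those values, included in the 137, stayed within the interval by construction. Of 50 recomputed counts, 37 stayed within 1.5 times the reported one. The 4 members higher in the cDC1 library became 8 at a limit of 1 CPM, 2 at 50 CPM and 7 at 1.5-fold. The 1 member lower in the cDC1 library became 0 at 50 CPM and 3 at 1.5-fold (Rab20, Rab24 and Rab3d). The 8 members called between mature and immature cells of the cDC1 library became 4 at 50 CPM and 5 with 5 markers asked of a mature cell. The 4 called in the cDC2 library became 1 at 50 CPM, 2 with 3 markers asked and 7 with the mean over cells, which adds Rab22a, Rab32 and Rab9. The count of 0 between cycling and immature cells became 2 in the cDC1 library (Rab39 and Rab3d) and 3 in the cDC2 library (Rab24, Rab28 and Rab29) with each cell thinned to 2000 UMIs, and 1 in the cDC2 library (Rab29) with the gate limit at 20 per 10000. Which members are called after thinning moved with the random draw. Over 5 further draws, chosen after seeing the data, 0 to 5 cycling members were called in the cDC1 library and 2 to 4 in the cDC2 library, none of them in every draw. In mature cells 7 to 12 and 7 to 10 members were called, with Rab21, Rab7b and Rab9 called in every draw of the cDC1 library and Rab21 in every draw of the cDC2 library. The share of all genes called was not counted under these alternatives or draws, so a higher count is not read as more members changing. In the draw used for the other values Rab21 stood at a log2 ratio of 0.92 in the cDC2 library, under 2-fold. Thinned values of single members that rest on 3 UMIs or fewer were not used. The lower limits of the gates and of the CPM decide which low members are called, and a call near 2-fold can end with either. Leaving out the cells with shared barcodes, the macrophage, monocyte and other lineage cells, or mature and cycling cells of the other kind was chosen after seeing the data. Without macrophage, monocyte and other lineage cells the log2 ratio of Rab7b between libraries was 4.72. No paired analysis was possible because each sort had 1 library. Few cells limit the mature state of both libraries and the Ccr7-positive state of the cDC1 library, where members under 10 CPM rest on a handful of UMIs.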
